A study of Homo sapiens with 6 samples.

Results

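Core-binding factor is a transcription factor made of a DNA-binding RUNX protein and the partner subunit CBFB. Its 4 genes, CBFB, RUNX1, RUNX2 and RUNX3, were taken by symbol from a table of 20111 genes, and all 4 were found. CBFB led to this choice because its transcript had been seen to be lower after both siRNAs of the study, so its values against the control siRNA are given as a description with no test. The 3 RUNX genes entered as its partners, by family name and not by their values.

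A RUNX protein binds DNA through its Runt domain. CBFB does not touch DNA itself, but it raises the affinity of the Runt domain for DNA and protects the RUNX protein from degradation. RUNX1 is known above all from blood formation, RUNX2 from bone formation, and RUNX3 from T cells, sensory neurons and gastric epithelium. In breast epithelium RUNX1 and CBFB are recurrently mutated in tumours, and RUNX2 has been tied to invasion and to bone metastasis.

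The cells are MDA-MB-231, a human triple-negative breast cancer line, and their messenger RNA was sequenced. They received one of 3 siRNAs: a control (siControl), one against the nuclear receptor coactivator NCOA3 (siNCOA3) or one against the signalling adaptor SHC1 (siSHC1), and were collected at 24 h or 48 h. There are 6 libraries, 1 for each siRNA and time, so the 2 times stand in as the replicates of an siRNA. The labels do not say whether libraries came from separate cultures, so p-values rest on a spread between libraries that may be technical and that includes any unequal response at the times. No sequence of an siRNA is given in the sources used here, and 1 siRNA label per target means that the targeted gene and the siRNA itself cannot be told apart.

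Levels are in FPKM, fragment counts adjusted for gene length and library depth, so that genes can be set side by side. Total FPKM ran from 495518 to 553073 per library, and relative depth, read from the spacing of low values, was 1.02 to 1.45 times that of the shallowest library, siControl of 24 h. NCOA3 stood at 15.4% and 16.3% of siControl after siNCOA3, at 24 h and 48 h, and SHC1 at 13.4% and 13.3% after siSHC1, which matched the labels. VIM, the mesenchymal filament vimentin, ran from 887 to 1020 FPKM. PGR, the progesterone receptor, was listed at 0 in all 6 libraries, and ESR1, the oestrogen receptor, reached at most 0.0922 FPKM. ERBB2, the receptor HER2, stood at 26.9 to 35.5 FPKM. Of the epithelial genes, the keratin KRT8 stood at 206 to 285 FPKM, EPCAM at 6.65 to 10.7 FPKM and the cadherin CDH1 at 0.0207 to 0.572 FPKM. Of the blood markers, GATA1 was listed at 0 throughout and CD3E, PTPRC and SPI1 stayed at or below 0.104 FPKM, while CD68, a lysosomal protein of macrophages, stood at 44.3 to 63.1 FPKM. Of the 3 stromal markers found in the table, DCN was listed at 0 and COL1A1 and PDGFRB ran from 2.07 to 7.47 FPKM.

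The 3′ untranslated region (3′ UTR) of the CBFB messenger is shown first, because it holds letters that recur in the comparison of both siRNAs. Words of 7 bases were ranked, after each siRNA, by the standardised mean change of the genes with the word in the 3′ UTR. That change was taken relative to the mean of all genes searched, with the core-binding factor genes left out. The lowest word was GTCAAGA after siNCOA3 and GCCCATC after siSHC1. The transcript of the respective target holds each word in its coding sequence, at 2 places, and not in its 3′ UTR. What share of all 7-base words these transcripts hold was not counted. Below, the 25 bases around each word in CBFB (GENCODE 29, GRCh38, plus strand) are set beside the place in the target transcript that shares the longest run with it. Capitals mark that shared run, which includes the word.
CBFB, chr16:67099107-67099131: taaaaaCAAGTCAAGAaattaaaat
NCOA3, coding sequence, chr20:47636710-47636734, plus strand: ctagctCAAGTCAAGAgaaagaccc
CBFB, chr16:67098794-67098818: atgtgtgcTGCCCATCtttacatac
SHC1, coding sequence, chr1:154963848-154963872, minus strand: caatcactTGCCCATCatctctgcg

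The run shared with NCOA3 is 10 bases long and that shared with SHC1 is 8 bases long. In the CBFB transcript with the longest coding sequence, the siSHC1 word begins at base 25 of a 3′ UTR of 2244 bases and the siNCOA3 word at base 338. The siSHC1 word lay in the 3′ UTR of all 3 annotated coding transcripts of CBFB and the siNCOA3 word in 2 of them. None of the 5 coding transcripts of RUNX1, the 8 of RUNX2 or the 3 of RUNX3 carried either word in its 3′ UTR. The annotated 3′ UTR of RUNX2 ran from 0 to 3777 bases, and a transcript without a 3′ UTR could carry no word there. Outside the 3′ UTR, the RUNX1 transcript with the longest coding sequence held the siSHC1 word 1 time. Over all 10718 tested genes with a 3′ UTR of at least 30 bases, 7.70% carried the siNCOA3 word and 7.39% the siSHC1 word. Both words together were present in 127 genes, or 1.18%, and CBFB is one of them. The words were chosen by fold changes of the same comparisons, a match is a description of letters, and whether either siRNA acts on these letters was not tested.

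CBFB was the member with a large change, and it was lower in all 4 knockdown libraries than in both siControl libraries. The siControl libraries stood at 35.6 FPKM (24 h) and 35.8 FPKM (48 h). After siNCOA3 CBFB stood at 11.3 and 10.7 FPKM, and after siSHC1 at 17.4 and 12.3 FPKM. The groups did not overlap, and the siControl values were nearly equal at the 2 times. CBFB was chosen by its fall after both siRNAs, and how many other genes separate as fully was not counted. After scaling between libraries, siNCOA3 left 29.2% and 30.2% of the siControl level of the same time, and siSHC1 left 45.8% and 34.9%. As log2(scaled FPKM + 1), the 24 h and 48 h libraries lay at -1.69 and -1.64 after siNCOA3 and at -1.08 and -1.45 after siSHC1, each against siControl of its time. All of these comparisons use the same 2 siControl libraries. Fewer transcripts per cell and fewer cells that express the gene cannot be told apart in these bulk samples.

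**Figure D1:**
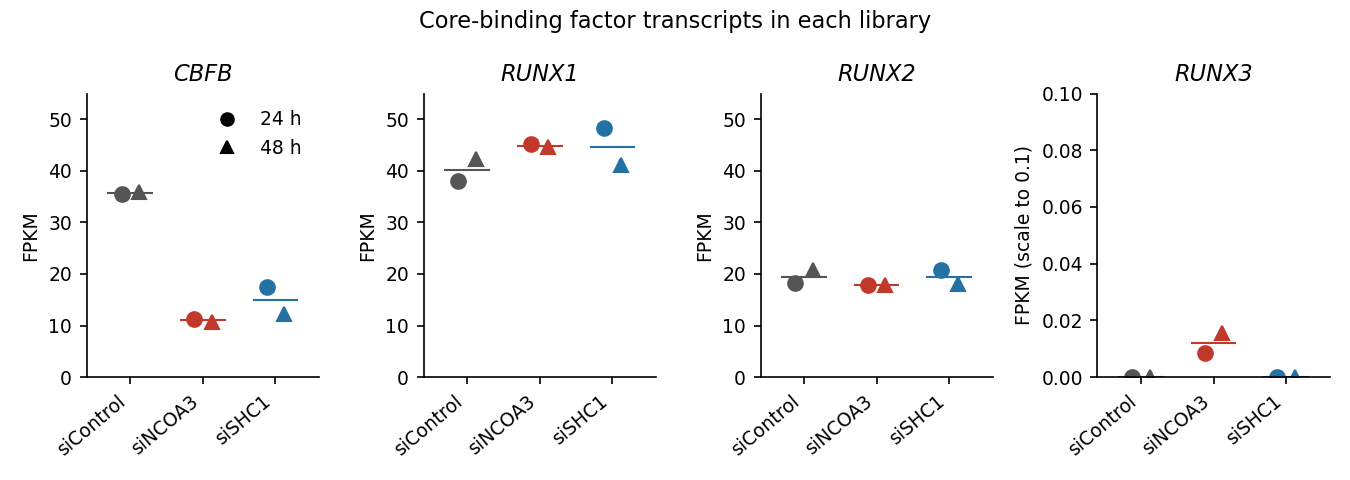
FPKM of each core-binding factor gene (vertical axes) in the siControl, siNCOA3 and siSHC1 libraries, circles for 24 h, triangles for 48 h and lines for the mean of the 2 libraries; the RUNX3 axis ends at 0.1 FPKM. CBFB stands at 10.7 to 17.4 FPKM in the knockdown libraries against 35.6 and 35.8 FPKM in siControl, while the RUNX1 and RUNX2 groups lie within 38.0 to 48.2 and 17.9 to 20.8 FPKM.

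The median change of the 127 genes that carry both words, CBFB among them, was -0.05 on the log2 scale after siNCOA3 and -0.13 after siSHC1, against 0.0045 and 0.014 in the 9228 genes with neither word. Genes with 1 word alone lay at least as low after the siRNA of that word. The median was -0.060 after siNCOA3 in the 698 genes with only the siNCOA3 word. It was -0.15 after siSHC1 in the 665 genes with only the siSHC1 word. Beside CBFB, low values among the 127 genes were those of FANCC at -0.54 after siNCOA3, and of LIMD2 at -1.87, TMEM164 at -1.41 and PKM at -1.25 after siSHC1. These names were chosen with their values in view. Lower values occurred without the words: among the 9228 genes with neither word the lowest change was -2.86 after siNCOA3 and also -2.86 after siSHC1. Each word was chosen as the lowest by these same changes, so low medians of its carriers follow from the choice and are no separate result. CBFB was chosen by the same changes too, so its place among these genes is a description and supports nothing.

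**Figure D2:**
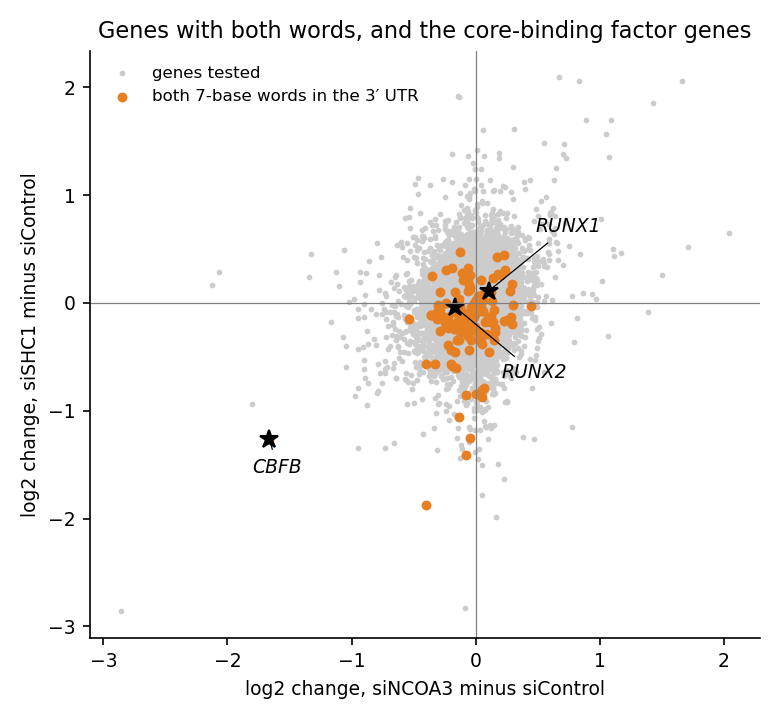
Fitted log2 change after siNCOA3 (horizontal) and after siSHC1 (vertical), both against siControl, for the 11690 genes tested (grey), the 127 genes with both 7-base words in the 3′ UTR (orange) and the core-binding factor genes (stars). CBFB, which was chosen by these changes, lies at -1.66 and -1.26, and RUNX1 and RUNX2 lie near 0; both axes use the same siControl libraries.

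The difference between the 2 knockdowns is a comparison that did not choose CBFB, though it shares libraries with those that did. CBFB was higher after siSHC1 than after siNCOA3 by 0.60 on the log2 scale at 24 h and by 0.19 at 48 h. In the model over all 6 libraries the difference was 0.40 ± 0.12 (SE, n = 2 libraries per siRNA), with a 95% interval of 0.11 to 0.69, and it did not pass over all genes tested (limma, Benjamini-Hochberg adjusted p = 0.0832, unadjusted p = 0.0138). In this comparison 9.74% of the 11690 tested genes passed. The difference ran from 0.20 to 0.59 and its adjusted p from 0.0590 to 0.405 over the 15 alternative analyses. The lowest difference, 0.20, came without the siSHC1 library of 24 h and the highest, 0.59, without that of 48 h.

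Between the times, CBFB changed by -0.09 on the log2 scale in siControl, by -0.04 after siNCOA3 and by -0.45 after siSHC1, each from 1 library at 24 h to 1 at 48 h. The fitted difference of 48 h from 24 h was -0.20 ± 0.10 (SE, n = 3 libraries per time; 95% interval -0.43 to 0.04; limma adjusted p = 0.408). It was -0.07 without either siSHC1 library. Over all genes 0.0257% passed in the time comparison (0.0171% higher and 0.00855% lower at 48 h). Whether the siSHC1 cells differed from the others in their change over time could not be tested with 1 library per siRNA and time.

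RUNX1, the most abundant of the 3 DNA-binding partners, did not follow CBFB. It stood at 38.0 and 42.3 FPKM in siControl, at 45.1 and 44.7 FPKM after siNCOA3, and at 48.2 and 41.2 FPKM after siSHC1 (24 h, then 48 h). The siNCOA3 libraries lay above both siControl libraries, and the siSHC1 libraries overlapped the siControl range. The fitted change was 0.11 ± 0.09 after siNCOA3 (SE, n = 2 libraries per siRNA; 95% interval -0.11 to 0.33; limma adjusted p = 0.727). After siSHC1 it was also 0.11 ± 0.09 (95% interval -0.11 to 0.34; limma adjusted p = 0.478). The intervals leave out a change of RUNX1 as large as that of CBFB after either siRNA. They include falls down to -0.11 after either siRNA, and rises up to 0.33 after siNCOA3 and 0.34 after siSHC1.

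RUNX2, the second partner by level, stood at 18.3 and 20.7 FPKM in siControl, at 17.9 FPKM in both siNCOA3 libraries, and at 20.8 and 18.0 FPKM after siSHC1. The siNCOA3 values lay just below the lower siControl value, and the siSHC1 values lay on both sides of the siControl range. RUNX2 had a fitted change of -0.16 ± 0.10 after siNCOA3 (SE, n = 2 libraries per siRNA; 95% interval -0.40 to 0.07; limma adjusted p = 0.630). After siSHC1 it was -0.04 ± 0.10 (95% interval -0.28 to 0.19; limma adjusted p = 0.824). Of all genes tested, 0.111% passed after siNCOA3 and 6.42% after siSHC1, and neither RUNX1 nor RUNX2 was among them by limma. RUNX2 overlaps SUPT3H in the annotation, and whether strand was used in the counting is not given in the sources used here, so a part of its fragments could belong to that gene. SUPT3H changed by -0.05 after siNCOA3 and 0.14 after siSHC1 and did not pass either (limma adjusted p = 0.908 and 0.490).

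**Figure D3:**
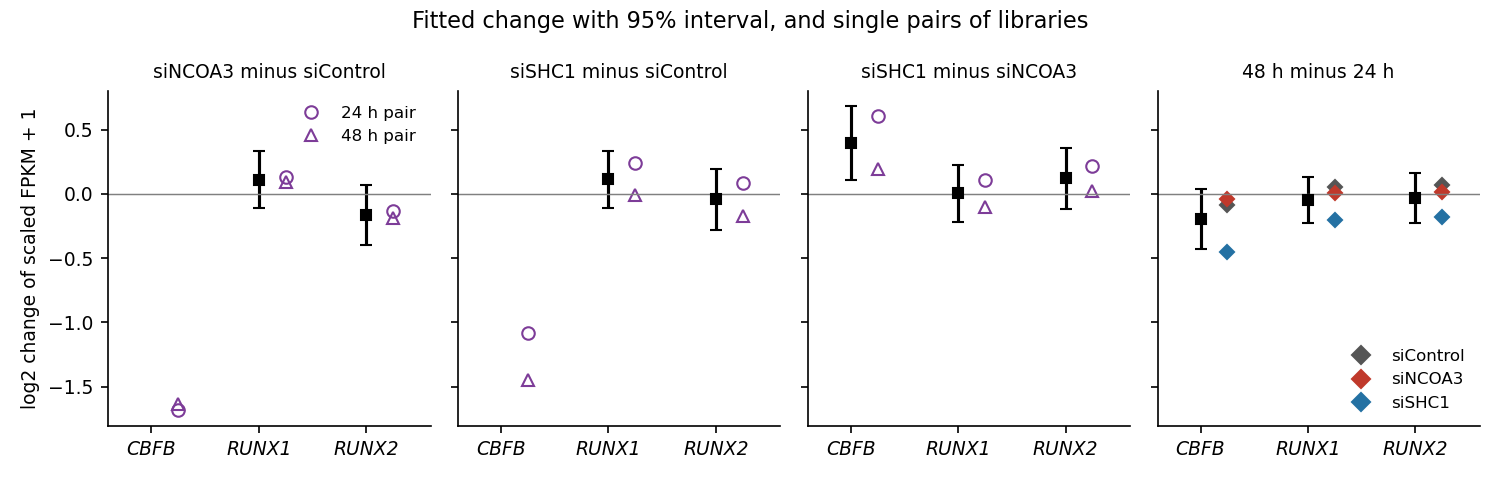
Change in log2(scaled FPKM + 1) (vertical axis) of CBFB, RUNX1 and RUNX2 in the 4 comparisons, with the fitted value and its 95% interval (squares and bars) and the single pairs of libraries (open circles 24 h, open triangles 48 h; diamonds the 3 siRNAs in the time comparison). CBFB against siControl has no fitted value drawn, since it was chosen by that change, and its pairs lie between -1.69 and -1.08; every RUNX1 and RUNX2 interval includes 0.

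Neither RUNX1 nor RUNX2 differed between the knockdowns or the times beyond the spread of the libraries. For siSHC1 against siNCOA3 the fitted difference was 0.0048 ± 0.09 for RUNX1 and 0.12 ± 0.10 for RUNX2 (SE, n = 2 libraries for each siRNA; adjusted p by limma 0.982 and 0.460). For 48 h against 24 h it was -0.05 ± 0.08 for RUNX1 and -0.03 ± 0.08 for RUNX2 (SE, n = 3 libraries per time; limma adjusted p = 0.796 and 0.885). The sign of the RUNX1 difference between the knockdowns changed with the scaling, at -0.0097 without scaling and -0.035 with equal library totals.

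RUNX3, the third partner, was listed at 0 in both siControl and both siSHC1 libraries, and at 0.00843 and 0.0154 FPKM in the siNCOA3 libraries of 24 h and 48 h. It did not reach the 1 FPKM in 2 libraries asked of a tested gene, so 3 of the 4 members were tested and RUNX3 is described by its values alone. Next to the 17.9 FPKM at which RUNX2 was lowest, these values are too small to read as a difference between groups. Per length, the order of the levels in siControl was RUNX1, CBFB, RUNX2 and RUNX3. RUNX1 at 38.0 FPKM and CBFB at 35.6 FPKM lay closer at 24 h than the siControl values of RUNX1 lay to each other. In the siNCOA3 and siSHC1 libraries CBFB stood below RUNX2. Over the 6 libraries the mean of RUNX1 exceeded that of 89.6% of the genes of the table, that of CBFB 79.0% and that of RUNX2 77.5%.

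The balance within the complex followed CBFB. Summed FPKM of the RUNX genes ran from 56.3 in siControl at 24 h to 69.0 after siSHC1 at 24 h. The ratio of CBFB to that sum was 0.632 and 0.569 in siControl (24 h, then 48 h), 0.178 and 0.171 after siNCOA3, and 0.252 and 0.208 after siSHC1. The groups did not overlap, but the ratio contains CBFB, which was chosen by its low values, and so it is no separate result. It compares transcripts and says nothing of the proteins.

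The ratio of RUNX1 to RUNX2 varied less within an siRNA than between siRNAs. It was 2.08 and 2.04 in siControl, 2.52 and 2.50 after siNCOA3, and 2.32 and 2.29 after siSHC1. Both knockdowns lay above siControl at both times, siNCOA3 above siSHC1, and the 3 groups did not overlap. How many other pairs of genes separate as fully was not counted. RUNX1 made up 67.5% and 67.1% of RUNX FPKM in siControl, 71.5% and 71.4% after siNCOA3, and 69.9% and 69.6% after siSHC1. As a ratio within a library, RUNX1 to RUNX2 does not depend on the scaling between libraries, and it cannot tell which of the 2 genes differed. Neither gene passed by limma after either siRNA, and an unequal change of the 2 genes was not fitted. The ratio was singled out after its values were seen and has no test. With 2 libraries per siRNA an exact permutation test could not pass.

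**Figure D4:**
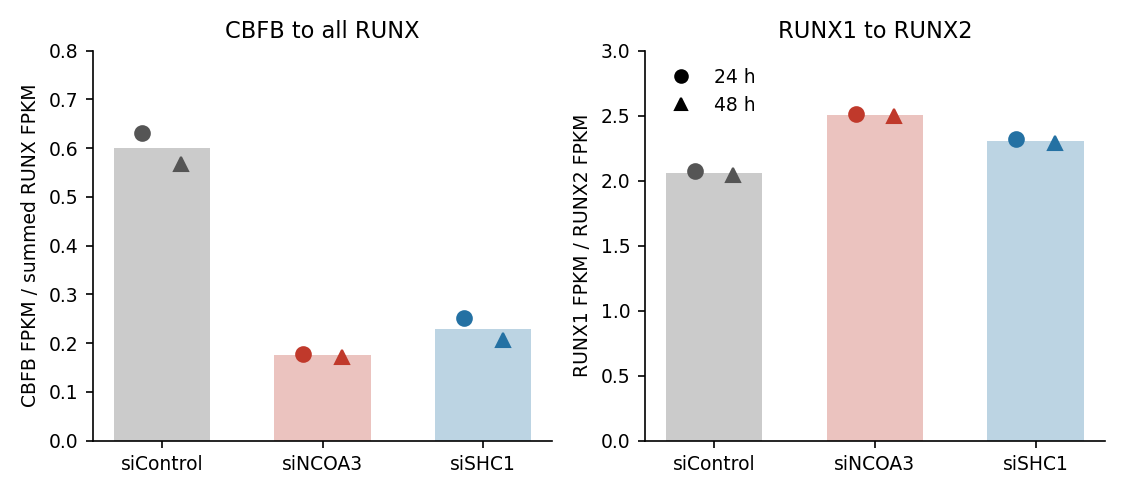
Ratio of CBFB FPKM to summed RUNX FPKM (left axis panel) and of RUNX1 FPKM to RUNX2 FPKM (right panel) by siRNA, with bars for the mean of the 2 libraries, circles for 24 h and triangles for 48 h. The left ratio is 0.569 and 0.632 in siControl and at most 0.252 elsewhere, and the right ratio is lowest in siControl, at 2.04 and 2.08.

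The genes whose pattern over the 6 libraries was most like that of CBFB were sought among 8925 others with a mean of at least 5 FPKM, by the root mean square difference of their centred log2 profiles. A gene with no variation would lie at 0.72. Of the 5 closest, 4 are described: AC104534.3 (0.40), the kinase-like STYK1 (0.46), AHSA2 (0.46) and AL136376.1 (0.47). AC104534.3 stood at 26.4 and 28.2 FPKM in siControl, 18.2 and 15.1 FPKM after siNCOA3, and 19.1 and 16.8 FPKM after siSHC1. All 4 were lower in each knockdown library than in the siControl library of the same time. They were chosen by likeness to CBFB over these same libraries, so this follows largely from the choice and is no separate result. The range of each on the log2 scale was smaller than the 1.73 of CBFB. The STYK1 3′ UTR carried neither word, and no 3′ UTR of the other 3 was matched. On chromosome 16 the 3 nearest tested genes before CBFB (PDP2, RRAD, CES2) and the 3 after it (B3GNT9, TRADD, FBXL8; GRCh38.p14 order) did not pass after either siRNA by limma, with changes from -0.23 (B3GNT9) to 0.33 (RRAD) after siNCOA3 and from -0.18 (B3GNT9) to 0.65 (RRAD) after siSHC1.

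RUNX proteins bind the letters TGTGGT. Windows of 300 bases around annotated gene starts (RefSeq, GRCh38.p14) were searched for TGTGGT and its reverse complement ACCACA, which do not overlap in one place. Of the 35116 windows of all genes, 13.1% held at least 1. One of the 2 RUNX2 windows (chr6:45328080-45328379, plus strand) held ACCACA 4 times and the other none. One of the 2 RUNX3 windows (chr1:24964961-24965260, minus strand) held it 2 times and the other none. RUNX1 had only 1 window, which held neither, and any other start of RUNX1 was not searched. CBFB had no window in the table.

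Genes that work with the complex were followed in a list of 47 cofactors and regulators, all found in the table, of which 43 were tested. The most abundant were HNRNPK, an RNA-binding protein described as a partner of CBFB (mean 256 FPKM), SMURF2, a ubiquitin ligase (103 FPKM), and PRMT1, an arginine methyltransferase (101 FPKM). RUNX1T1 and CBFA2T3, the ETO-family corepressors known from leukaemia fusions, were listed at 0 in all 6 libraries. After siNCOA3 0 of the 43 passed by limma, against 0.111% of all genes, a share at which 0 is no result about the list. At an unadjusted p under 0.05 there were 3 of the 43, beside 1226 of all 11690 genes. Their median change was 0.0086, against -0.00064 over all genes tested. The largest changes, none of which passed, were those of the deacetylase HDAC4 at 0.53, the kinase HIPK2 at 0.23, the corepressor TLE1 at -0.23 and the ubiquitin ligase subunit SKP2 at 0.21.

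After siSHC1 3 of the 43 cofactors and regulators passed, 1 higher and 2 lower, or 6.98%, near the 6.42% of all genes (3.11% higher, 3.32% lower), with a median change of -0.04 against 0.0035. At an unadjusted p under 0.05 there were 15 of the 43, beside 3077 of all 11690 genes. SKP2, which targets cell cycle inhibitors and RUNX proteins for degradation, fell from 20.9 and 20.6 FPKM in siControl to 13.6 and 10.9 FPKM (24 h, then 48 h), a change of -0.75 ± 0.09 (SE, n = 2 libraries for each siRNA, adjusted p by limma 0.0105). ETS1, which binds DNA jointly with RUNX1, fell from 47.8 and 39.6 to 27.0 and 25.8 FPKM (-0.73 ± 0.11, limma adjusted p = 0.0210). HDAC4 at 0.73, SMAD1 at -0.54, TLE1 at 0.40 and the TGF-beta effector SMAD3 at 0.37 did not pass. None of the 43 carried the siSHC1 word in its 3′ UTR, and 4 (HIPK2, SMAD5, CDK6 and ELF1) carried the siNCOA3 word. When a library was left out, the count was 0 (siControl of 24 h), 1 without siControl of 48 h (ETS1), 1 without the siSHC1 library of 48 h (SKP2), 2 without that of 24 h (SKP2 kept and ETS1 lost), and 5 without the siNCOA3 library of 48 h (HDAC4 and TLE1 added).

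Genes described as targets of RUNX proteins and CBFB formed a second list of 41, all found in the table, of which 20 were tested. The bone genes SPP1 (osteopontin), BGLAP (osteocalcin), IBSP and COL10A1 and the proteases MMP9 and MMP13, classical targets of RUNX2, had a mean below 1 FPKM and were not tested. Of the blood cell genes, MPO, GZMB and CD4 were listed at 0, and SPI1 and CSF3R had a mean of at most 0.0314 FPKM. CST7 (mean 12.4 FPKM) and CSF1R (mean 2.15 FPKM) were tested. The most abundant targets were TIMP1, a protease inhibitor (mean 652 FPKM), the hyaluronan receptor CD44 (542 FPKM) and the angiogenic factor VEGFA (194 FPKM). Of these 20, 0 passed by limma after siNCOA3, against 0.111% of all genes, a share at which 0 is no result about the list. At an unadjusted p under 0.05 there were 3 of the 20, beside 1226 of all 11690 genes. Their median change was -0.11, with 7 above 0, against -0.00064 over all genes tested. The cytokine CSF2 (GM-CSF) stood at 17.3 and 23.3 FPKM in siControl and at 9.31 and 12.6 FPKM after siNCOA3, a value of -0.88 ± 0.35 that did not pass (SE, n = 2 libraries for each siRNA, adjusted p by limma 0.493). It passed as the only member when either siSHC1 library was left out and when only the siControl and siNCOA3 libraries were fitted. PTHLH at 0.60, SOX4 at -0.34 and CSF1R at -0.32 did not pass, and all 3 have a mean below 3 FPKM.

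After siSHC1 2 of the 20 targets passed, or 10%, beside 6.42% of all genes, and both rose, beside 3.11% of all genes. ITGA5, the alpha subunit of the fibronectin receptor, rose from 50.2 and 65.9 FPKM in siControl to 93.9 and 127 FPKM (24 h, then 48 h), a change of 0.88 ± 0.10 (SE, n = 2 libraries for each siRNA, adjusted p by limma 0.00856). CDKN1A, the cell cycle inhibitor p21, rose from 41.3 and 46.1 to 54.5 and 71.1 FPKM (0.47 ± 0.11, limma adjusted p = 0.0490). PTHLH at 0.83, CSF1R at 0.72, the mesenchymal transcription factor SNAI2 at -0.44 and TNFRSF11B at -0.43 did not pass, and CSF2 stood at -0.26. The median of the 20 was 0.14, with 15 above 0, against 0.0035 over all genes. At an unadjusted p under 0.05 there were 9 of the 20, beside 3077 of all 11690 genes. One of the 20, the receptor TGFBR1, carried the siSHC1 word, and 3 (SOX4, BCL2L11 and IL11) carried the siNCOA3 word. The count was 0 without either siControl library, 1 without the siSHC1 library of 48 h (ITGA5), and 3 without that of 24 h (CSF2 added). It was 4 without either siNCOA3 library, where CDKN1A dropped out and CSF1R, PTHLH and SNAI2 came in.

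**Figure D5:**
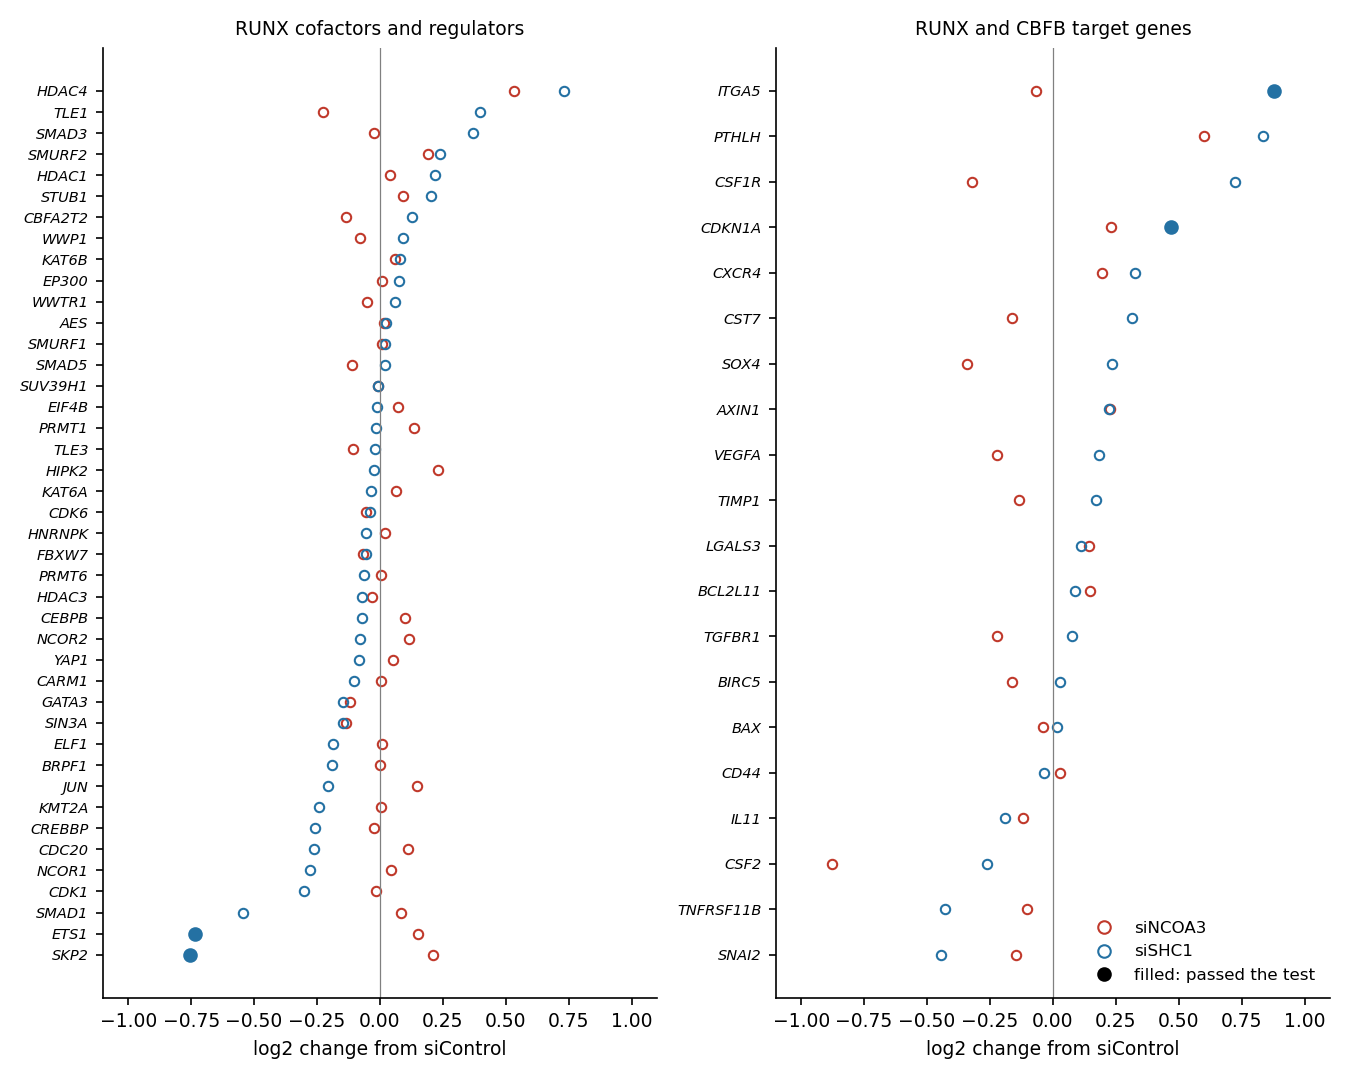
Fitted log2 change from siControl (horizontal axes) of 42 of the 43 tested cofactors and regulators (left) and the 20 tested target genes (right), red for siNCOA3 and blue for siSHC1, with filled points for genes that passed by limma. The filled points are SKP2 and ETS1 on the left and ITGA5 and CDKN1A on the right, all after siSHC1, and the red points have none.

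Set against each other, the knockdowns differed in 7 of the 43 cofactors and regulators, or 16.3%, and in 4 of the 20 targets, or 20%, beside 9.74% of all genes (5.35% higher and 4.4% lower after siSHC1). TLE1 (0.62) and SMAD3 (0.39) were among the 3 that were higher after siSHC1 than after siNCOA3, and SKP2 (-0.96), ETS1 (-0.88), SMAD1 (-0.63) and CDC20 (-0.37) were the 4 lower. Among the targets CSF1R (1.04), ITGA5 (0.95), VEGFA (0.41) and TIMP1 (0.31) were higher after siSHC1, and CSF2 (0.62), SOX4 (0.58), CST7 (0.48) and TNFRSF11B (-0.33) did not pass. Between 48 h and 24 h 0 members of either list passed by limma, against 0.0257% of all genes. At an unadjusted p under 0.05 there were 5 of the 43 cofactors and regulators and 6 of the 20 targets, beside 1660 of all 11690 genes. These comparisons share the siSHC1 and siNCOA3 libraries with those against siControl.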

How the data were processed

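The authors deposited FPKM per gene and library, although the name of the table speaks of counts. The tools STAR, Cufflinks and DESeq2 and the build hg19 are named, without roles or versions, per the submitters' processing notes. Libraries came from a stranded mRNA kit and Trizol RNA, per the labels' protocols. FPKM were scaled by the median of ratios over 11042 genes (factors 0.947 to 1.02). Genes with at least 1 scaled FPKM in at least 2 libraries (11690) were tested on log2(scaled FPKM + 1), a pseudocount of 1 that understates changes of low genes, with limma 3.58.1 in R 4.3.3 (trend and robust moderation, additive terms for siRNA and time, 2 residual degrees of freedom). P-values were adjusted by Benjamini-Hochberg over all genes, with a threshold of 0.05. The test was tried on simulated data.

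The members, the gene lists and the words were chosen with earlier results of these data known. The rule for named genes takes the members, NCOA3, SHC1, the 5 genes most like CBFB and, from each list, members that passed (at most 6 by size), 4 others with the largest change and the 3 most abundant. Other names were chosen after their values were seen. List and marker symbols matched the table for 106 of 107. Words were searched in 3′ UTRs of GENCODE 29 (GRCh38, matched by symbol to 91.7% of tested genes), a build other than the authors', with Python 3.11.15. Some genes that these rules name are not reported here.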

Additional observations from a re-analysis of the deposited data

Results flagged for a closer look

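Changes opposite in sign at 24 h and 48 h stood out for RUNX1 and RUNX2 in comparisons with siSHC1. Each rests on 1 library per siRNA and time, and the difference between the times was not tested. RUNX1 after siSHC1 against siControl changed by 0.24 on the log2 scale at 24 h and by -0.012 at 48 h, a difference of -0.25. RUNX1 after siSHC1 against siNCOA3 changed by 0.11 and -0.10, a difference of -0.21. RUNX2 after siSHC1 against siControl changed by 0.085 and -0.17, also a difference of -0.25. These 3 comparisons share the siSHC1 libraries.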

How the results depend on the processing

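RUNX1 and RUNX2 did not pass in any of the 15 alternatives of any of the 4 comparisons, nor did CBFB between the knockdowns or times, which in a fit with 2 residual degrees of freedom says little about small changes. Leaving out 1 library at a time gave RUNX1 -0.0019 to 0.23 and RUNX2 -0.16 to 0.070 after siSHC1, RUNX1 -0.11 to 0.12 for siSHC1 against siNCOA3, and RUNX1 -0.099 to 0.029 and RUNX2 -0.085 to 0.044 for 48 h against 24 h, so that signs reversed. RUNX1 between the knockdowns also reversed to -0.0097 without scaling and to -0.035 with equal library totals. CBFB against siControl, as a description, kept its sign, at -1.78 to -1.55 after siNCOA3 and -1.46 to -1.07 after siSHC1, partly under alternatives added after the data were seen. Of the cofactors and regulators 3 passed after siSHC1, but 0 without a filter on low values, 5 with a mean of at least 5 FPKM and 1 without trend and robust moderation, with 0 to 5 when a library was left out. Of the targets 2 passed, but 0 without the filter, 1 without trend and robust moderation, 4 with only the libraries compared, and 0 to 4 when a library was left out. In the fit with no replicate block, that is without pairing by time, 0 targets passed. After siNCOA3 the targets gave 1 call with only the libraries compared and 0 to 1 when a library was left out. The cause of these moves was not tested. The absolute depth behind the FPKM values is unknown, so no counting interval is given.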
